A study of Mus musculus with 6 samples.

Results

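A set of 6 genes, Retnla, Chil3, Acta2, Scd3, Myh1 and Mobp, was seen in Hnf3a replicates 2 and 3 and was nearly silent in the other 4 libraries. They were chosen by their counts, as the genes with at most 12 estimated counts in Hnf3a replicate 1 and in every control library, and at least 60 in Hnf3a replicates 2 and 3. Names starting with Col, Krt, Fox, Mmp, Adam or Itg were left out. The 6 genes were 0.0203% of the 29595 genes in the table. Because the counts of this contrast chose them, the values below describe them and carry no test.

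The RNA came from TKPTS cells, a mouse kidney proximal tubule line with the genotype label WT in the control group. The cells were transfected for 24 hours with pcDNA3.1-Hnf3a-Flag (Hnf3a group, 3 libraries) or with pcDNA3.1-Flag, the plasmid without insert (pcDNA group, 3 libraries). HNF3α is the product of Foxa1, a forkhead factor that opens chromatin in liver, lung and gland epithelium. All 6 libraries are of 1 cell line, the labels do not say whether they are separate cultures, and no lane or library date was given.

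Foxa1 itself was at 80803, 77904 and 69508 estimated counts in Hnf3a replicates 1, 2 and 3, or 334.2, 295.5 and 284.2 FPKM (fragments scaled by transcript length and library depth). In the pcDNA libraries it was at 2134, 2330 and 2416 counts. The plasmid's gene was therefore high in all 3 Hnf3a libraries, and highest in replicate 1, where the 6 genes were at most 8 counts. Total counts ran from 60473818 to 71154667, with the highest total in Hnf3a replicate 2. Of the proximal tubule markers, Aqp1, a water channel, lay between 162 and 235 counts in all libraries. Lrp2 and Cubn, the endocytic receptors megalin and cubilin, lay between 17 and 58, and Slc5a2, the glucose carrier of the early tubule, reached at most 3.

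The 6 genes are textbook markers of different tissues. Retnla and Chil3 code for secreted proteins that macrophages make after interleukin 4, and the pair is widely used to mark alternative activation. Acta2 and Myh1 code for contractile proteins, the actin of smooth muscle and myofibroblasts and a myosin heavy chain of fast skeletal muscle fibres. Scd3 codes for a fatty acid desaturase known from skin, and Mobp for a protein of central myelin, which oligodendrocytes form. None of them is known as a product of the proximal tubule.

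The macrophage pair was the most abundant per length. Retnla (ENSMUSG00000061100; chromosome 16, 48842551 to 48844461, plus strand of GRCm38, 4 exons in its longest transcript) had 0, 129 and 151 counts across the Hnf3a group, in the order of replicates 1 to 3, and 0 in every control library. In FPKM it was at 2.70 and 3.43 in replicates 2 and 3, so that the Hnf3a group averaged 2.04 ± 1.81 FPKM (SD, n = 3). Its spread within the group was nearly as large as its mean. Chil3 (ENSMUSG00000040809; chromosome 3, 106147554 to 106167564, minus strand, 11 exons) had 6, 297 and 347 counts across the Hnf3a group and 0, 6 and 0 across the pcDNA group. Its levels of 2.29 and 2.88 FPKM in Hnf3a replicates 2 and 3 overlapped those of Retnla. In Hnf3a replicate 1 each gene had the same count as the highest pcDNA library, 0 for Retnla and 6 for Chil3.

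The muscle genes were lower. Acta2 (ENSMUSG00000035783; chromosome 19, 34241090 to 34255590, minus strand, 9 exons) had 8, 92 and 96 counts across the Hnf3a group and 4, 7 and 0 across the pcDNA group. Hnf3a replicate 1 was 1 count above the highest control, and both were under 12 counts. Myh1 (ENSMUSG00000056328; chromosome 11, 67200052 to 67224575, plus strand, 40 exons) had 0, 147 and 171 counts across the Hnf3a group and 0 in every control library. Per length the order of the pair was reversed, with Acta2 at 0.527 and 0.593 FPKM and Myh1 at 0.291 and 0.364 FPKM in Hnf3a replicates 2 and 3, since the longest Myh1 transcript has 6081 bases and that of Acta2 2035.

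The lipid and myelin genes completed the set. Scd3 (ENSMUSG00000025202; chromosome 19, 44203269 to 44244016, plus strand, 6 exons) had 0, 112 and 101 counts across the Hnf3a group and 0 in every control library, with 0.396 and 0.384 FPKM in replicates 2 and 3. Mobp (ENSMUSG00000032517; chromosome 9, 120149707 to 120176091, plus strand, 4 exons) had 3, 99 and 109 counts across the Hnf3a group and 9, 4 and 11 across the pcDNA group. It was the lowest per length, at 0.181 and 0.213 FPKM, and the only one with counts in every library. In the 4 quiet libraries Retnla, Scd3 and Myh1 were at 0 throughout. A count of 0 allows up to 12 counts, about 3 sequenced fragments, which is 0.182 to 0.198 CPM (counts scaled by the library's total) in these 4 libraries.

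**Figure D1:**
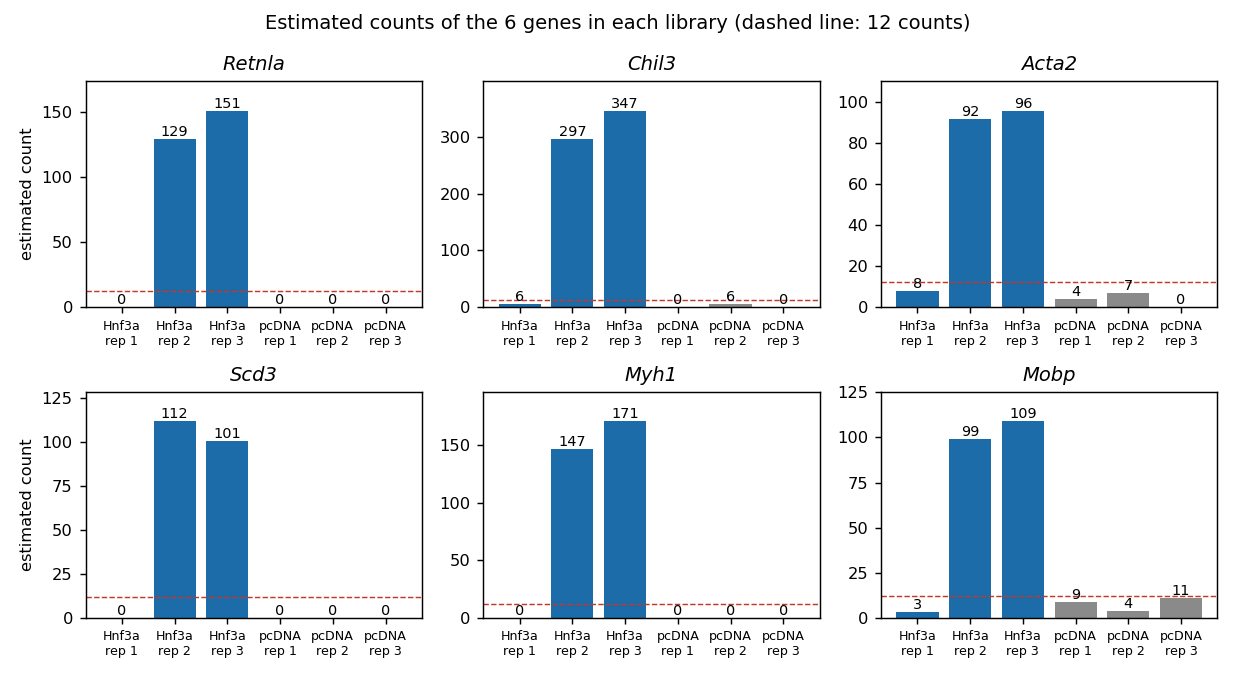
Estimated counts (vertical axis, linear from 0, scaled per panel) of the 6 genes in the 3 Hnf3a libraries (blue) and the 3 pcDNA libraries (grey), 1 bar per library with its count printed, and a dashed line at 12 counts. Every gene has at least 92 counts in Hnf3a replicates 2 and 3 and at most 11 elsewhere.

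Nearest to the thresholds, Acta2 was the member with the lowest count, 92 in Hnf3a replicate 2, followed by Mobp with 99. Just under 60 were Cemip, a hyaluronan-degrading protein, with 64 and 59 counts in Hnf3a replicates 2 and 3, and C1qb, a complement chain made by macrophages, with 57 and 75. Mobp came closest to the upper limit, with 11 counts in pcDNA replicate 3. Cd36, a fatty acid carrier of fat cells and macrophages, was just over it, with 151 and 150 counts in Hnf3a replicates 2 and 3 and 13 in pcDNA replicate 2. The count pattern alone also held 3 genes that the rule on names left out. These were Col3a1, Col5a1 and Itgax, 2 fibrillar collagen chains and an integrin of dendritic cells and macrophages, named here after their values were seen.

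The promoters of the 6 genes were read from RefSeq (GRCm38.p6), 250 bases before and 50 after the start, and all 6 genes matched. They were searched on both strands for the forkhead motif TGTTTAC, for TGTTTGC and TATTTAC, and for TGTTT, the core that the first 2 contain. TGTTTAC was in 0 of 6 promoters and in 3.65% of all 32851 promoters, and TATTTAC was in 0 of 6 and in 3.04%. TGTTTGC was in 1 of 6, that of Chil3 at base -66 from the start on the opposite strand, and in 5.07% of all promoters. The TGTTT core was in 5 of 6 promoters, and in 50.5% of all. The sequence of Chil3 is shown for that match, that of Myh1 as a member with 4 cores at 0 counts in all quiet libraries, and that of Scd3 as the member without a core. Capitals mark TGTTT, or AAACA where it lies on the other strand, and each is written 5′ to 3′ in the direction of its gene. Chil3 is chr3:106167515-106167814 (minus strand), Myh1 chr11:67199852-67200151 (plus strand) and Scd3 chr19:44203038-44203337 (plus strand).
Chil3: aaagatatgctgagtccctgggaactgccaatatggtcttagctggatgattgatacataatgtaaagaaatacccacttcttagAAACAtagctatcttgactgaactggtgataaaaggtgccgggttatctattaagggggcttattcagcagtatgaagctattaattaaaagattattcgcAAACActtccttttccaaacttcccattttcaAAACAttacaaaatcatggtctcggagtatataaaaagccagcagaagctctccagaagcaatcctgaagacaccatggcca
Myh1: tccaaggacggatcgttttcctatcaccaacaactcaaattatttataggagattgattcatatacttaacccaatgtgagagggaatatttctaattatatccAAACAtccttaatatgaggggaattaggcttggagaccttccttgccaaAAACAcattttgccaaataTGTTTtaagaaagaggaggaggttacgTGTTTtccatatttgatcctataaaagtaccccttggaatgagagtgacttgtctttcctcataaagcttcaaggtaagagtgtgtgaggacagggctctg
Scd3: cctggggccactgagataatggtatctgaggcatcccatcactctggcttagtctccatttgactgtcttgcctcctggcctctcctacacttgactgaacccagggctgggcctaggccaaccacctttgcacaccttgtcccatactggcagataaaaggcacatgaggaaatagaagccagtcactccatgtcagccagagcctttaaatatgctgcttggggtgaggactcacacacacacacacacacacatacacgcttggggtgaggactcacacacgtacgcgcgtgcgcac

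The letters TATAAA, searched on both strands, were in 3 of 6 promoters and in 13.6% of all. They lay at base -30 for Retnla and -32 for Myh1, where a TATA box usually lies, and at -3 for Chil3, at the annotated start itself. Myh1 had a further match at base -208 on the opposite strand. The STAT6 motif, the palindrome bound by the factor that acts after interleukin 4, was searched in the same way. It was in 1 of 6, that of Retnla at base -145, and in 6.95% of all. The CArG box (CC, then 6 letters of A or T, then GG) was also searched, and was in 0 of 6 and in 1.63% of all. These matches describe letters in a window of 300 bases, and a missing match says nothing about binding elsewhere.

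Hnf3a replicates 2 and 3 were then compared with each other, since the rule set a minimum for both but not their ratio. The level in CPM was higher in replicate 3 for 5 of 6 genes, all but Scd3. The log2 ratio of replicate 2 to replicate 3 was -0.35 for Retnla, -0.34 for Chil3, -0.34 for Myh1, -0.26 for Mobp, -0.18 for Acta2 and 0.029 for Scd3. With libraries scaled by TMM the median was -0.29. Over the 2351 other genes in the same count range, the middle 50% of this ratio lay between -0.26 and 0.18, with a median of -0.042. Counting error is wide at these counts. The 95% exact interval of Chil3, the best counted, ran from -0.82 to 0.11, and that of Acta2 from -1.07 to 0.71. All 6 intervals held 0, so no single gene could be told apart from an equal level in the 2 libraries. Whether the 6 genes share a common ratio was not tested.

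**Figure D2:**
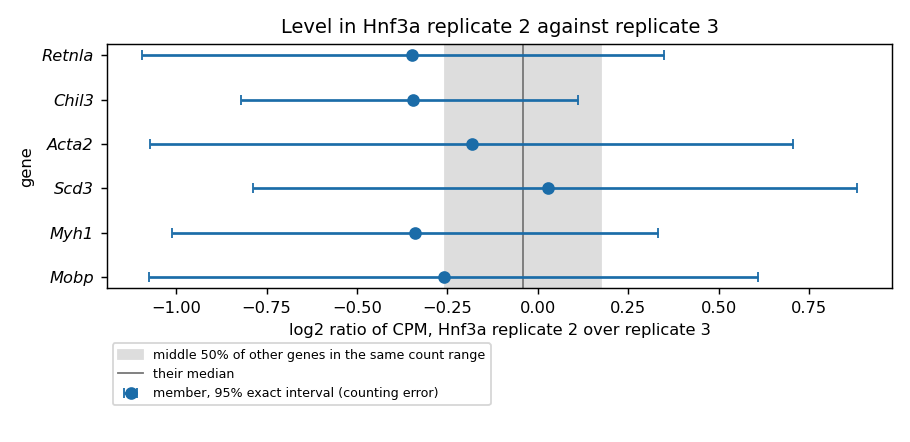
Log2 ratio of CPM in Hnf3a replicate 2 over replicate 3 (horizontal axis) for each of the 6 genes (points) with the 95% exact binomial interval for counting error (bars), over the middle 50% (grey band) and median (line) of 2351 other genes with 60 to 347 counts in both libraries. The points run from -0.35 to 0.029, and every interval holds 0.

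Most members belong to gene families, and their close relatives were compared next. These families were listed after the members were known. Of the resistin-like genes, Retnlg reached at most 4 counts and Retn at most 5 in any library. Among the chitinase-like genes, Chil1 was seen in every library, with 196, 208 and 164 counts in the Hnf3a group and 258, 363 and 366 in the pcDNA group. Chil4, a near copy of Chil3, was not among the genes of the table, so the Chil3 counts are uncertain by the reads they share.

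Scd1 and Scd2, the common desaturases, were abundant in all libraries, with 13587 to 18143 and 45678 to 61607 counts. Scd4 had 17, 27 and 4 counts across the Hnf3a group and 23, 19 and 12 across the pcDNA group. Among the actins, Acta1 of skeletal muscle had 17, 165 and 201 counts across the Hnf3a group and 39, 22 and 20 across the pcDNA group, the same 2 libraries being high. The cytoplasmic actin Actb had 95580 to 116630 counts throughout. Of the adult fast myosins beside Myh1 on chromosome 11, Myh2 was at 15 and 11 counts and Myh4 at 12 and 30 in Hnf3a replicates 2 and 3, and both were at 0 in the other 4 libraries. Actins and myosin heavy chains share long stretches of sequence, so reads may have been split among their members.

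The genes beside the members on the chromosome did not reach the thresholds. Of 24 such neighbours, the 2 nearest in the table on each side of every member, 0 met the count thresholds, 8 were above 12 counts in all 6 libraries and 9 were at most 12 in all 6. Stambpl1, 0.757 kb from Acta2, had 1327 to 1536 counts in every library. Antisense genes annotated in GENCODE vM21 overlap Scd3 and Myh1, and a transcript on the same strand overlaps Mobp. The use of strand in counting was not given in the sources used here, so these 3 genes are uncertain to that extent.

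Each member was then set beside the other markers of its tissue. In total 36 lists of tissue and pathway genes were used, with 381 distinct genes, of which 314 were in the table. In whole-culture RNA, a few cells rich in a transcript and many cells poor in it cannot be told apart. Acta2, Myh1 and Mobp stand in these lists themselves and were left out of all the list counts and sums that follow. Of the 141 remaining list genes that were at most 12 counts in the 4 quiet libraries, 29, or 20.6%, were above 12 counts in both Hnf3a replicates 2 and 3. Among the 11121 genes of the table that were as quiet in those 4 libraries, members left out, 219, or 1.97%, were. The lists were written with earlier results of these libraries known.

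The macrophage list moved with Retnla and Chil3 in how many genes were seen. Of its 15 genes, 6, 14 and 14 were above 12 counts in Hnf3a replicates 1, 2 and 3 and 7, 7 and 6 across the pcDNA group. C1qa, a complement chain, had 0, 27 and 27 counts across the Hnf3a group and 0 in every control library. Fcgr3, an Fc receptor, had 0, 38 and 31 against 0 in each, and Adgre1, the F4/80 antigen, 9, 41 and 38 against 0, 8 and 0. Lyz2, the lysozyme of myeloid cells, had 0, 265 and 273 counts against 16, 44 and 6. The summed level of the list did not follow this order. It was 91.7, 101.8 and 102.8 CPM in the Hnf3a libraries and 118.4 to 126.4 CPM across the pcDNA group, and Cd14, Mpeg1, Cd68 and Csf1r were at 554 or more counts in every library. Cd14 was lower in the Hnf3a group, with 2763 to 3244 counts against 4186 to 4953, and Aif1 had 24, 20 and 17 against 30, 31 and 25. Markers of alternative activation, listed later, were mostly highest in Hnf3a replicates 2 and 3. Mgl2 was at 17 and 15 counts there and at 0 elsewhere, and Mrc1 had 11, 57 and 28 against 16, 3 and 13. Arg1, seen in all libraries, had 325, 474 and 411 against 279, 261 and 263. Ear2 (0, 16 and 4 against 0 in each) and Clec10a (0, 11 and 7 against 0, 0 and 3) lay near the floor of 12 counts. Cd163 was at 0 in all but pcDNA replicate 2, where it had 4.

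The skeletal muscle list was seen with Myh1. Of its 12 other genes in the table, 5, 10 and 10 were above 12 counts across the Hnf3a group and 5 in every control library. Ckm, the muscle creatine kinase, had 0, 54 and 27 counts across the Hnf3a group and 1, 0 and 0 across the pcDNA group, and Tnnt3, the fast troponin T, had 0, 63 and 30 against 0 in each. Without Myh1 the list summed to 6.65, 13.9 and 14.1 CPM in the Hnf3a libraries and to 5.76 to 6.99 CPM across the pcDNA group, so the same 2 libraries stood apart. Myod1, the factor that sets up the muscle programme, reached at most 4 counts. The heart muscle list was mixed, with 3, 6 and 5 of 9 genes above 12 counts across the Hnf3a group and 2 to 3 across the pcDNA group, and its sum lay between 6.60 and 7.87 CPM in all libraries. Myh6, the main heart myosin of the adult mouse, had 8, 33 and 50 counts against 0 in every control, and Nppa, the atrial natriuretic peptide, 3, 33 and 34 against 0. The defining marker Tnnt2, cardiac troponin T, had 347, 349 and 262 counts against 224, 303 and 327, and Nppb, the related B-type peptide, 58, 64 and 87 against 120, 194 and 120.

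In the smooth muscle list 1 of 4 other quiet genes had the pattern above 12 counts. It was Des, the intermediate filament of muscle, which had 0, 21 and 36 counts across the Hnf3a group and 4, 4 and 0 across the pcDNA group. The defining markers Myh11 and Cnn1 did not set Hnf3a replicates 2 and 3 apart from replicate 1. Myh11 had 33, 24 and 21 counts against 0, 8 and 2, and Cnn1 33, 43 and 15 against 8, 23 and 9. Without Acta2 the list summed to 29.5, 29.5 and 29.0 CPM in the Hnf3a libraries and to 20.7 to 24.6 CPM across the pcDNA group. Of the fibroblast list, 6, 13 and 12 of 15 genes were above 12 counts across the Hnf3a group and 4 to 5 across the pcDNA group. Postn, a matrix protein of activated fibroblasts, had 6, 48 and 42 counts against 5, 0 and 0. The defining marker Lum, a small proteoglycan, had 0, 21 and 18 against 0, 4 and 0, and Dcn 8, 46 and 40 against 8, 0 and 14. The defining marker Pdgfra was less clear, with 13, 38 and 16 counts against 4, 8 and 10. Fap went the other way within the Hnf3a group, with 68, 64 and 43 against 50, 36 and 33. The fibroblast list summed to 505.8, 546.0 and 552.4 CPM against 464.0 to 472.8 CPM, and Fstl1 had 27689 to 33531 counts in every library. The sum includes Col1a1, with 33, 2694 and 3099 counts across the Hnf3a group and 0, 16 and 5 across the pcDNA group. It also includes Col3a1, with 7, 935 and 1240 against 4, 11 and 0. The order of the sum within the Hnf3a group rests on these collagen chains.

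Markers of brain tissue were mixed beside Mobp. Nefl, the light neurofilament, had 8, 43 and 38 counts across the Hnf3a group and 0, 0 and 4 across the pcDNA group. Slc1a2, the glutamate carrier of astrocytes, had 16, 113 and 121 against 32, 20 and 31. Of the neuron list, 6, 11 and 10 of 12 genes were above 12 counts across the Hnf3a group and 6 to 7 across the pcDNA group. The neuron list summed to 4.91, 9.51 and 7.85 CPM against 5.87 to 7.09 CPM. Among its defining markers, Snap25 had 29, 82 and 91 counts against 35, 40 and 28, and Syt1 15, 80 and 45 against 8, 14 and 23. Both were highest in Hnf3a replicates 2 and 3. Rbfox3, also a defining marker, had 4 counts in Hnf3a replicate 3 and 0 elsewhere. Gap43, a growth cone protein, had 78, 144 and 106 counts against 155, 137 and 149. Stmn2, a tubulin-binding protein, had 14, 53 and 37 against 18, 55 and 50. Gap43 and Stmn2 thus did not set the same 2 libraries apart. Of the astrocyte and oligodendrocyte list, 0 of the 4 other quiet genes had the pattern above 12 counts, and without Mobp the list summed to 53.8, 62.7 and 61.6 CPM against 51.9 to 53.7 CPM. The other myelin genes were not uniform. Mag had 11, 31 and 33 counts against 19, 0 and 15, whereas Mbp, which has transcripts outside myelin, had 2989 to 4046 in every library, and Mog, Sox10 and Olig2 of oligodendrocytes reached at most 8.

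For Scd3, a list of sebaceous gland genes was written after the members were known. Of 7 genes in the table, 3 were quiet in the 4 libraries, and 1 of these 3 had the pattern above 12 counts. It was Krt79, a keratin of the sebaceous duct. Awat2, a wax ester synthase, and Far2, which makes fatty alcohols, were seen in all libraries. Of 12 epidermal genes 5, 9 and 8 were above 12 counts across the Hnf3a group and 5 to 6 across the pcDNA group. Of the 12 genes 6 were quiet, and 2 of these 6 had the pattern. Among them was Dsc3, a desmosomal cadherin, with 0, 13 and 26 counts across the Hnf3a group and 0 in every control. Of the defining markers, Krt5 had 7, 146 and 100 counts against 13, 0 and 17. Krt10 had 150, 287 and 231 against 162, 155 and 141, and Krt14 had 223, 282 and 271 against 268, 232 and 308.

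**Figure D3:**
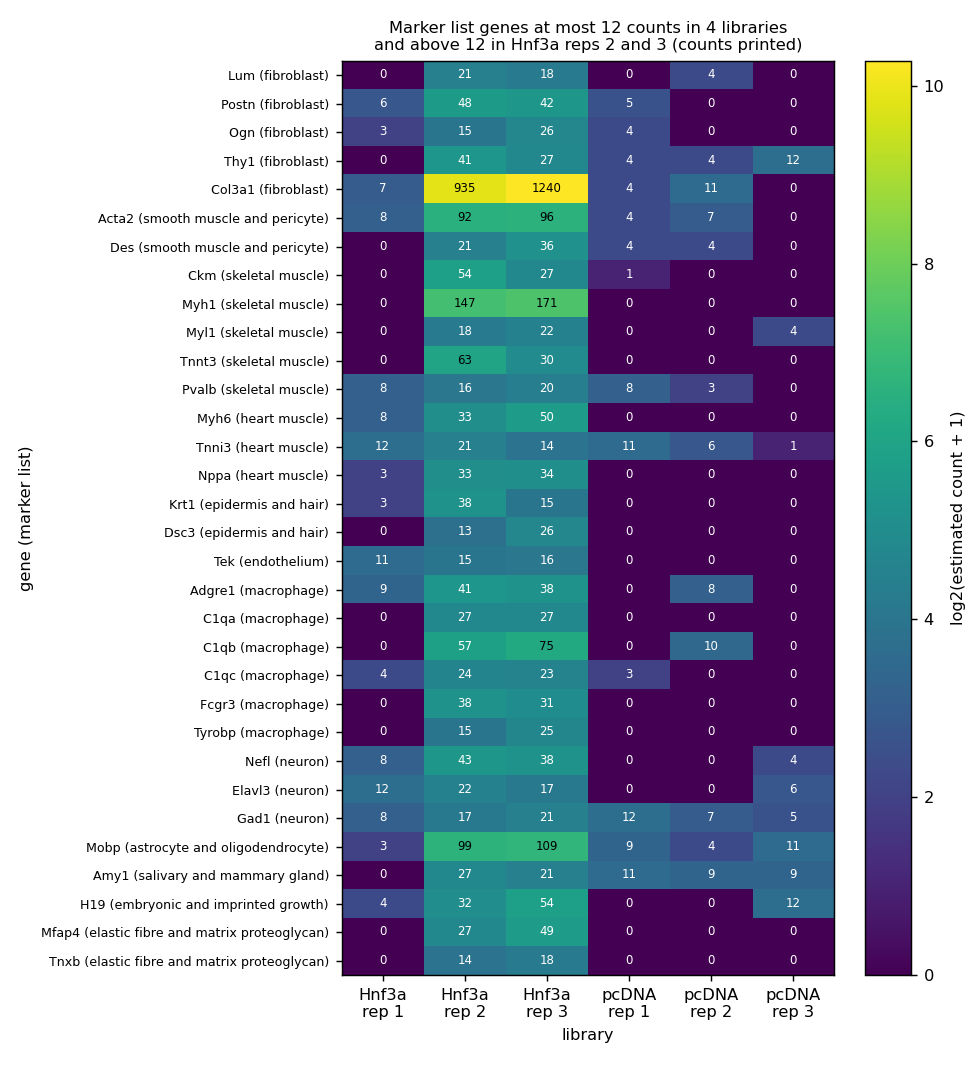
Estimated counts (printed; colour is log2 of the count plus 1) of the 32 marker list genes, the members Acta2, Myh1 and Mobp included, that were at most 12 in Hnf3a replicate 1 and the pcDNA libraries and above 12 in Hnf3a replicates 2 and 3, with libraries in columns and genes in rows beside their list. Without the 3 members, 29 genes from 11 of the 36 lists are left, most of them from the macrophage, fibroblast and skeletal muscle lists.

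Single genes of other lists also had the pattern above 12 counts. They were Tek of endothelium, Amy1 of salivary gland and H19 of the imprinted growth genes, and Mfap4 and Tnxb of the matrix list. Tek met the cut narrowly, with 11, 15 and 16 counts across the Hnf3a group. So did Tnni3 (12, 21 and 14) and Elavl3 (12, 22 and 17), which are among the 29 list genes. Amy1 had 0, 27 and 21 counts against 11, 9 and 9, and H19 4, 32 and 54 against 0, 0 and 12. Mfap4 had 0, 27 and 49 and Tnxb 0, 14 and 18, both against 0 in every control. The remaining 25 lists held no gene with the pattern besides Mobp. In 22 of them at least 1 gene was quiet enough to have shown it, as in bone (7 genes), cartilage (5), kidney tubule (5) and neutrophil (4). The liver list had 0 such genes, so it could not show the pattern. Of the forkhead factors and textbook HNF3α targets only 1 of 9 genes in the table, Igfbp1, was quiet enough. Alb, the liver albumin that HNF3α is known to drive, had 695, 631 and 652 counts across the Hnf3a group and 1071, 1312 and 687 across the pcDNA group.

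An opposite pattern ran through the same libraries. Exactly 3 genes of the table had at least 60 counts in Hnf3a replicate 1 and every pcDNA library and at most 12 in Hnf3a replicates 2 and 3, and all 3 are hormones. Ins2, an insulin gene, had 2226, 0 and 0 counts across the Hnf3a group against 1097, 740 and 2058 across the pcDNA group. Ins1, the second insulin gene of the mouse, had 813, 0 and 0 against 447, 178 and 841. Gh, growth hormone of the pituitary, had 144, 0 and 0 against 113, 128 and 98. Gcg, the glucagon gene of the pancreatic islet, followed with 79, 0 and 0 against 58, 137 and 81. The 4 libraries in which the 6 genes were nearly silent were therefore those that held islet and pituitary hormone transcripts. Of the digestive enzymes of the pancreas, Cela2a had 8, 0 and 22 counts across the Hnf3a group and 0 in every control, Cela1 reached at most 17 counts in any library and Ctrb1 at most 4. Whether RNA or reads of other tissues entered the libraries, and which part of the members' counts they would make up, was not tested.

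**Figure D4:**
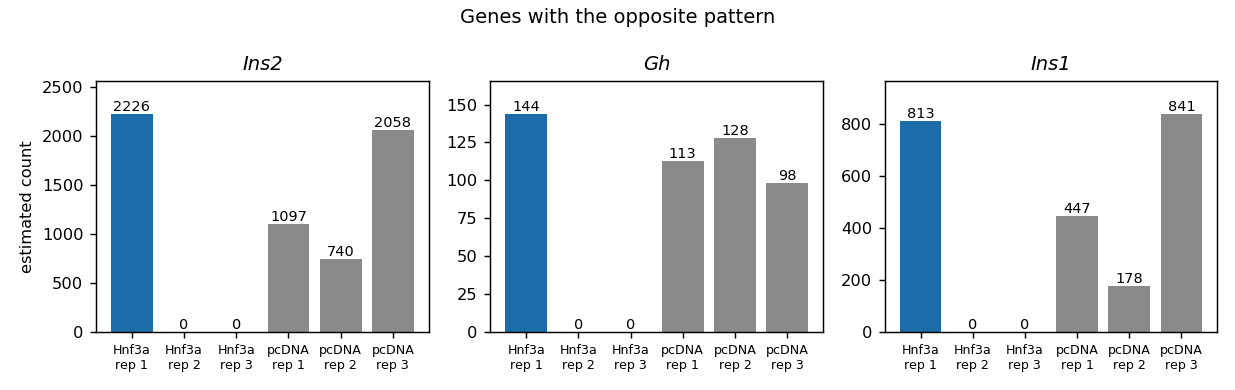
Estimated counts (vertical axis, linear from 0, scaled per panel) of Ins2, Gh and Ins1 in the 3 Hnf3a libraries (blue) and the 3 pcDNA libraries (grey), 1 bar per library with its count printed. All 3 genes are at 0 in Hnf3a replicates 2 and 3 and between 98 and 2226 in the other 4 libraries.

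The comparison of the Hnf3a and pcDNA groups over all genes gave no call for the 6 genes. In edgeR's quasi-likelihood test 1 of the 6, Mobp, passed the filter on low counts, and 0 of 1 was called higher at an adjusted p under 0.05. The background was 1.04% of 17824 genes called higher. Mobp alone was under an unadjusted p of 0.05, and DESeq2 and limma also called 0 of 1. With no filter all 6 were tested and 0 called, beside a background of 0.733%, and 2 were under an unadjusted p of 0.05. The outcome turned on 1 library. Without Hnf3a replicate 1, 6 of 6 were called higher, beside a background of 1.36% of 18556 genes. The rule had already fixed that outcome, since it asks for low pcDNA counts and high counts in the 2 Hnf3a libraries that remain. With every library kept, the lowest Hnf3a count was that of replicate 1 for all 6 genes. It was below the highest control for Mobp, equal to it for Retnla, Chil3, Scd3 and Myh1, and 1 count above it for Acta2.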

How the data were processed

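RNA of 6 TKPTS libraries was sequenced from both ends with 150 bases per read. The authors deposited 1 table with estimated counts (whole numbers) and FPKM values per gene and library. The submitters' processing notes name cutadapt 1.9, HISAT2 2.0.4, UMI-tools, StringTie 1.3.4d, DESeq2, edgeR and mm10, without roles. Low counts piled up at 4 (in Hnf3a replicate 1, 1148 genes against 680 at 3 and 378 at 5), so 1 fragment was taken as 4 counts, and 12 counts as the floor. Intervals and floors cover counting error only. GENCODE vM21 holds 29514 of the genes, 25765 of them at the same coordinates.

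The members, lists and tests were chosen with earlier results of these data known. The rule for named genes took Foxa1, the members, the defining markers of the lists and the genes next to the thresholds. Other list genes, relatives, neighbours and hormones were named after their values were seen. Groups were compared with edgeR 4.0.16 in R 4.3.3 (filterByExpr, TMM, glmQLFit with robust fitting, glmQLFTest, two-sided, Benjamini-Hochberg adjustment over all genes tested). The alternatives were DESeq2 1.42.0, limma 3.58.1 on log2(FPKM + 0.1) and log2(FPKM + 1), which understate the change of low genes, other filters, scalings and thresholds, the replicate block and leaving out each library. Counts divided by 4 and a rule asking for 60 counts in either library were added after the data were seen. P-values measure the spread between these libraries, which may be technical. No pair of libraries had identical values or agreed within counting noise. Tested on simulated data of this comparison with 17464 genes, edgeR recovered 149 of 200 genes changed by 1 on the log2 scale, with 11 false calls.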

Additional observations from a re-analysis of the deposited data

How the results depend on the processing

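The number of genes meeting the rule moved with its thresholds. It was 6 as reported, 3 with at most 4 counts in the quiet libraries (Myh1, Retnla and Scd3), 34 with at least 30 counts and 3 with at least 120 counts in Hnf3a replicates 2 and 3 (Chil3, Myh1 and Retnla), and 15 with 60 counts in either. Leaving out a library from the rule gave 6 to 12, and all 6 members remained in each case. Of the marker list genes, 4 met the thresholds as reported (3 of them members), 1 with at most 4 counts in the quiet libraries, 13 with at least 30 and 2 with at least 120. A stricter or looser threshold by itself keeps fewer or more genes. The share of member promoters with a forkhead motif was 0% for TGTTTAC and 83.3% for the shorter core.

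Over all genes 565 were called, against 236 and 231 in the limma fits on log2(FPKM + 0.1) and log2(FPKM + 1), the cause of which was not tested, and 263 to 643 without 1 library at a time. Members called ran from 0 to 6 in those fits, 6 being without Hnf3a replicate 1. Every other fit in which a member was tested called 0. With at least 1 CPM in at least 3 libraries, and with counts divided by 4, no member could be tested. The replicate numbers did not pair the libraries (correlations of 0.011, -0.013 and -0.016 for same-numbered pairs), and with the replicate block 463 genes and 0 members were called. Foxa1 kept its call and direction in all 15 alternative fits, with log2 fold changes of 4.84 to 5.02. The ratio of Hnf3a replicates 2 and 3 stayed between -0.34 and -0.28.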

Other observations

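A further 9 genes were at most 12 counts in the 4 quiet libraries and reached 60 counts in 1 of Hnf3a replicates 2 and 3 only. They were named after their values were seen. Of these, 4 were seen in both libraries and lay near the threshold, Rab3c, C1qb, Cemip and Tnnt3. The other 5 were at or near 0 in 1 of the 2 libraries. Gm20716 had 0 counts in Hnf3a replicate 2 and 3295 in replicate 3, Gm44503 had 1 and 158, and Ndor1 had 0 and 174. Commd1b had 136 and 0, and Gm45062 had 256 and 0. With at least 30 counts in both libraries, 28 genes joined the 6 members. Among them were the myeloid genes Clec7a (54 and 46 counts in Hnf3a replicates 2 and 3), Cd84 (45 and 49) and C3ar1 (40 and 50).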
